A study of Mus musculus with 6 samples.

Results

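The syndecans and glypicans are the proteins that carry heparan sulfate at the cell surface, and their transcripts were followed here in mouse embryonic fibroblasts (MEFs) labelled WT and GαqKO. The genes were taken by name, in a choice made with earlier results of these data known. They were Sdc1, Sdc2, Sdc3, Sdc4, Gpc1, Gpc2, Gpc3, Gpc4, Gpc6 and Tgfbr3l, which makes 10 of the 56953 genes in the table. Tgfbr3l, a relative of the co-receptor betaglycan (Tgfbr3), is neither a syndecan nor a glypican, and the glypican Gpc5 was not among the 10 names, so it is described with the other proteoglycans. The study compared 3 libraries labelled WT with 3 labelled GαqKO, which the study's methods describe as Gαq/11-knockout MEFs given by another laboratory together with the wild-type cells. All were grown in DMEM with fetal bovine serum, and no treatment, sex, passage or clone number is given for either line in the sources used here. RNA was selected by its poly-A tail and sequenced in paired ends, with 3 biological replicates stated per genotype. The sources describe a single MEF line per genotype, so a difference between the genotypes cannot be told apart from a difference between the lines.

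Syndecans are transmembrane proteins with a short cytoplasmic tail that binds PDZ proteins, and Sdc4 works beside integrins at focal adhesions. Glypicans have no tail: they sit on the outer leaflet through a glycosylphosphatidylinositol (GPI) anchor. The sugar chains of both families bind growth factors, morphogens and matrix proteins, and the pattern of sulfate groups along the chain sets which of these bind.

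The deposited values are normalized counts, in which each gene's count was divided by 1 size factor for its library. They summed to between 11392429 and 11483486 per library, and the reads on genes, recovered in 5 libraries, lay between 9853000 and 12229175. Gna11 was at 2148 ± 29.0 normalized counts in WT (SD, n = 3) and 451.6 ± 28.7 in GαqKO (SD, n = 3), whereas Gnaq, which encodes Gαq itself, was at 1691 ± 48.5 and 1926 ± 36.0. Gnaq was thus called higher in the libraries labelled GαqKO (log2 fold change 0.19, SE 0.04, limma adjusted p = 0.00212). Its RNA level goes against the label, although a count over the whole gene does not show whether an exon is missing. The study reports a lack of Gαq in its GαqKO MEFs from Western blot and immunofluorescence, and RNA counts do not measure protein. All 10 fibroblast markers reached 10 normalized counts in at least 3 libraries, Thy1 only through GαqKO. Their sum was 84406 to 90167 normalized counts in WT and 62921 to 66196 in GαqKO. It was carried by Vim, Col1a1, Col1a2 and Fn1, which were lower in GαqKO. Other fibroblast markers were low in WT and higher in GαqKO: Pdgfra went from 19.6 ± 2.23 to 2320 ± 42.0 normalized counts, Dcn from 32.1 ± 3.00 to 1663 ± 53.8 and Thy1 from 0.696 ± 1.21 to 64.9 ± 10.1 (SD, n = 3), and S100a4 and Pdgfrb were also higher. The epithelial markers summed to 515.0 to 540.9 in WT and 10.1 to 23.1 in GαqKO, with Cdh1 and Krt14 the main ones, and the neural markers to 366 to 433 and 50.4 to 76.3. Nearly all of the neural sum was the single gene Tubb3 (406 ± 35.5 and 60.9 ± 12.1 normalized counts, SD, n = 3), with Sox2 listed at 0 in every library. Endothelial (12.6 to 22.4 against 15.0 to 25.4), blood (104 to 115 against 69.5 to 103) and muscle markers (10.2 to 18.5 against 10.4 to 16.1, with Actc1 and Myog listed at 0) were low in both. In bulk RNA, fewer cells of a type and less RNA per cell cannot be told apart, and the part of these markers in the results below was not tested.

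Of the 10 genes, 7 reached 10 normalized counts in at least 3 libraries and were tested. In the GαqKO libraries Sdc2 and Sdc3 were higher, and Sdc1, Sdc4, Gpc1, Gpc4 and Gpc6 were lower (limma on log2(normalized count + 1), Benjamini-Hochberg adjusted p under 0.05 over 14096 genes). This was a comparison in which most genes differed: 65.8% of all genes tested passed, 31.8% as higher and 34.1% as lower, so that passing the test does not set these genes apart. A log2 fold change beyond 1 or -1 was reached by 1 higher gene, Sdc3, and 2 lower genes, Gpc1 and Gpc4, where 10.2% and 10.5% of all genes tested lay past it. The WT and GαqKO values of the 7 tested genes did not overlap, which was so for 69.6% of all genes tested. Their median log2 fold change was -0.39, beside -0.01 over all genes tested. Gpc4 entered the test only through its WT libraries. Gpc3 was under the limit, and Gpc2 and Tgfbr3l were listed at 0 in every library.

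**Figure D1:**
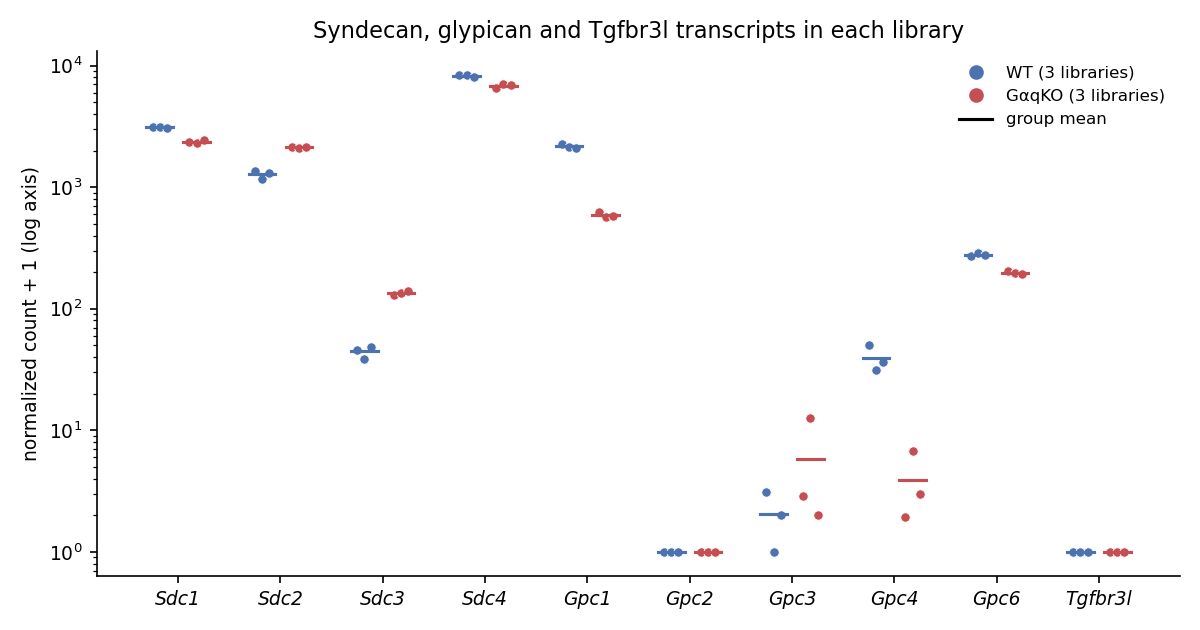
Normalized count + 1 on a log axis for each of the 10 genes, with 1 point per library, WT in blue and GαqKO in red, and a bar at the group mean (n = 3 libraries per genotype). The groups separate in 7 genes, with the widest gaps in Gpc4 and Gpc1 (lower in GαqKO) and Sdc3 (higher), while the Gpc3 points overlap and Gpc2 and Tgfbr3l stay at 0 counts.

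The promoters of the 4 genes that moved most are shown first, because 2 of them rose and 2 fell. They are the 250 bases before the start of the canonical transcript in GRCm39 (GENCODE release M39), read 5′ to 3′ on the gene's strand. They lie at chr15:32920449-32920698 (Sdc2, plus strand), chr4:130519598-130519847 (Sdc3, plus), chr1:92758876-92759125 (Gpc1, plus) and chrX:51254240-51254489 (Gpc4, minus). In Sdc3, Gpc1 and Gpc4 the outermost annotated start of the gene lies within this window. Capitals mark matches, on either strand, to the motifs searched.
Sdc2: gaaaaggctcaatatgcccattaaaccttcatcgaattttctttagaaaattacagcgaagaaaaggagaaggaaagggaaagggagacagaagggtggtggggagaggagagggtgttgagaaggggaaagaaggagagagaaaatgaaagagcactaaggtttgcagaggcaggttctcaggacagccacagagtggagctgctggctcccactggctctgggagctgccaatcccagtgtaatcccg
Sdc3: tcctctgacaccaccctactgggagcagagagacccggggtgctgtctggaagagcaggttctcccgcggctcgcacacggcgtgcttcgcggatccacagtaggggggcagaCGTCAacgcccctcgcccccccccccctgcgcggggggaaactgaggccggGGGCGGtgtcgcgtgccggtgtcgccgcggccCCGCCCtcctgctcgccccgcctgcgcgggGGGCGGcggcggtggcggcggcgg
Gpc1: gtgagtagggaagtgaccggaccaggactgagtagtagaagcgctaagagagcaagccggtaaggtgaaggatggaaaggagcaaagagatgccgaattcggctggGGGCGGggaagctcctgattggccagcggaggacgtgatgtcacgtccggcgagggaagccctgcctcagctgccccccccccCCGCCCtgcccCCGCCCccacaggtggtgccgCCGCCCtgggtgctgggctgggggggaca
Gpc4: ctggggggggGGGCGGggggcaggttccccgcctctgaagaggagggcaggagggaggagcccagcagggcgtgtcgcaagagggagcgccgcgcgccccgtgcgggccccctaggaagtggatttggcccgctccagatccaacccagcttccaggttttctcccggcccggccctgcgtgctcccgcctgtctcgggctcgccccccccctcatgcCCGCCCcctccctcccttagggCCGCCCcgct

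The Sdc2 promoter stands apart from the other 3 in composition. It holds 3 CpG dinucleotides and 49.6% G and C, beside a median of 8 and 53.2% over 21751 promoters of that length. The Sdc3 promoter holds 32 CpGs (76.4% G and C), Gpc4 holds 20 (74.8%) and Gpc1 holds 15 (66.8%). The GC box GGGCGG, the letters that Sp1-type factors bind, occurs 4 times in Gpc1, 3 times each in Sdc3 and Gpc4 and not in Sdc2. It was found in 7 of the 10 promoters and in 36.3% of all promoters. So the gene that rose most and the 2 that fell most share this motif. The other searches, also on both strands, gave few matches: TATAAA in Sdc4 alone (11.9% of all promoters), TGACG in Sdc1 and Sdc3 (18% of all), GGAATG in Gpc6 alone (12.1%), and TGANTCA (6.17%) and CACGTG (6.26%) in none of the 10. Each match is a description of these letters in this window only.

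Among the syndecans, Sdc3 rose most in proportion from the lowest level. Sdc3 is the syndecan best known from neurons and muscle precursors, and it lies on chromosome 4 (130519826 to 130556217, plus strand, ENSMUSG00000025743.15). It was at 44.9, 37.9 and 47.8 normalized counts in WT replicates 1, 2 and 3 and at 129.6, 134 and 139.98 in GαqKO replicates 1, 2 and 3. Each GαqKO library was thus well above each WT library, with means of 43.5 ± 5.11 and 134.6 ± 5.21 (SD, n = 3). The mean was 3.09-fold higher, at a log2 fold change of 1.61 (SE 0.16, 95% interval 1.26 to 1.96, limma adjusted p = 9.52e-07). Of all genes tested, 94.3% had a lower log2 fold change.

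Sdc2 was the second syndecan to rise. It is the main syndecan of mesenchymal cells in textbook accounts, where it takes part in fibronectin matrix assembly, and its gene is on chromosome 15 (32920699 to 33035213, plus strand, ENSMUSG00000022261.7). WT replicates 1, 2 and 3 held 1367, 1164 and 1298 normalized counts, and GαqKO replicates 1, 2 and 3 held 2147, 2107 and 2127. The WT libraries spread more (1276 ± 103, SD, n = 3) than the GαqKO libraries (2127 ± 20.0, SD, n = 3), and the groups did not overlap. The mean was 1.67-fold higher, at a log2 fold change of 0.74 (SE 0.06, limma adjusted p = 6.65e-08), so Sdc2 passed the test but not the fold limit.

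Sdc4 and Sdc1, the abundant pair, fell by little. Sdc4, the focal adhesion syndecan on chromosome 2 (164266025 to 164285807, minus strand, ENSMUSG00000017009.4), was at 8370.2, 8434 and 8038 normalized counts in WT replicates 1, 2 and 3 and at 6589, 7004.5 and 6949.5 in GαqKO. The GαqKO mean was 0.827 of the WT mean (8281 ± 213 and 6848 ± 226, SD, n = 3, log2 fold change -0.27, SE 0.04, limma adjusted p = 5.27e-05). Sdc1, the syndecan of epithelia and plasma cells, lies on chromosome 12 (8820854 to 8843725, plus strand, ENSMUSG00000020592.15). Its WT libraries held 3106, 3113 and 3073 normalized counts and its GαqKO libraries 2335, 2323 and 2445, which gives 0.764 of the WT mean (3098 ± 21.7 and 2368 ± 67.2, SD, n = 3, log2 fold change -0.39, SE 0.04, limma adjusted p = 1.87e-06). Both differences were small but larger than the spread between replicates, and no WT library of either gene lay below a GαqKO library. The epithelial markers Cdh1 and Krt14 were also higher in WT. Krt8 and Krt18 were higher there too, but low and under the limit for testing. Epcam (3.05 ± 2.10 normalized counts in WT and 4.64 ± 2.99 in GαqKO, SD, n = 3) and Krt5 were low, with overlapping groups. The part of these markers in the Sdc1 difference was not tested.

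Among the glypicans, Gpc1 carried the largest difference in counts. Gpc1 is a widely expressed glypican that binds FGFs and lies on chromosome 1 (92759062 to 92792113, plus strand, ENSMUSG00000034220.8), where 58.1% of its exon bases fall inside the spans of other genes, among them Ankmy1 on the opposite strand. WT replicates 1, 2 and 3 held 2267, 2145 and 2089 normalized counts and GαqKO replicates 1, 2 and 3 held 626, 568 and 575. Every WT library lay far above every GαqKO library. The WT mean (2167 ± 91.2, SD, n = 3) was 3.67-fold above the GαqKO mean (589.7 ± 31.9, SD, n = 3), at a log2 fold change of -1.88 (SE 0.06, 95% interval -1.997 to -1.755, limma adjusted p = 4.08e-12). Only 6.1% of all genes tested had a lower log2 fold change. The library kit keeps strand, but the strand setting of the counting is not given in the sources used here. Whether reads in the exon bases that Gpc1 and Ankmy1 share were counted for Gpc1, for Ankmy1 or for neither is not known.

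Gpc4 fell furthest in proportion, from a low level. It is a glypican of stem and neural cells that modulates Wnt and BMP signals, and lies on chromosome X (51139255 to 51254262, minus strand, ENSMUSG00000031119.5) with no other gene across its exons. WT replicates 1, 2 and 3 held 49.1, 30.1 and 35.6 normalized counts, and GαqKO replicates 1, 2 and 3 held 0.939, 5.78 and 2.01. The WT libraries were therefore low but clear, and the GαqKO libraries were close to 0. The means were 38.3 ± 9.75 and 2.91 ± 2.54 (SD, n = 3), at a log2 fold change of -3.50 (SE 0.46, 95% interval -4.50 to -2.50, limma adjusted p = 1.52e-05). As so few reads lie behind it, the size is loose: in the 5 libraries with recovered reads there were 113 reads in WT and 6 in GαqKO, a ratio per library depth of 12.2 (exact 95% interval 5.45 to 34.1, counting error only). With a pseudocount of 5 in place of 1 the log2 fold change was -2.48.

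Gpc6 fell by less. It is a glypican of growing bone and other mesenchyme on chromosome 14 (117162727 to 118216940, plus strand, ENSMUSG00000058571.12), with 34.1% of its exon bases in the spans of other genes. The WT libraries held 270.4, 288 and 276 normalized counts and the GαqKO libraries 202, 194 and 193. The groups were separate, with a GαqKO mean of 0.707 of the WT mean (278 ± 8.74 and 196.5 ± 4.69, SD, n = 3, log2 fold change -0.50, SE 0.09, limma adjusted p = 0.000236).

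The last 3 genes gave no test. Gpc3, a glypican that restrains Hedgehog signals and growth, lies next to Gpc4 on chromosome X (51361303 to 51703137, minus strand, ENSMUSG00000055653.14), and was at 2.09, 0 and 1.02 normalized counts in WT and 1.88, 11.6 and 1.01 in GαqKO. Only GαqKO replicate 2 stood above the rest, with 10 reads, and the groups overlapped. Gpc2, a glypican of the developing nervous system (chromosome 5, 138271917 to 138278288, minus strand, ENSMUSG00000029510.16), and Tgfbr3l (chromosome 8, 4298189 to 4301423, plus strand, ENSMUSG00000089736.3) were listed at 0 in every library. In both, nearly all exon bases lie inside other annotated gene spans (98.4% and 100%). Among protein-coding genes with at least 98% of their exon bases so placed, 64.9% of 2143 were listed at 0 in all 6 libraries, against 29.8% of 8769 protein-coding genes with none so placed. What part this had in the listed values of Gpc2 and Tgfbr3l was not tested, and a listed 0 is not read here as a lack of expression.

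**Figure D2:**
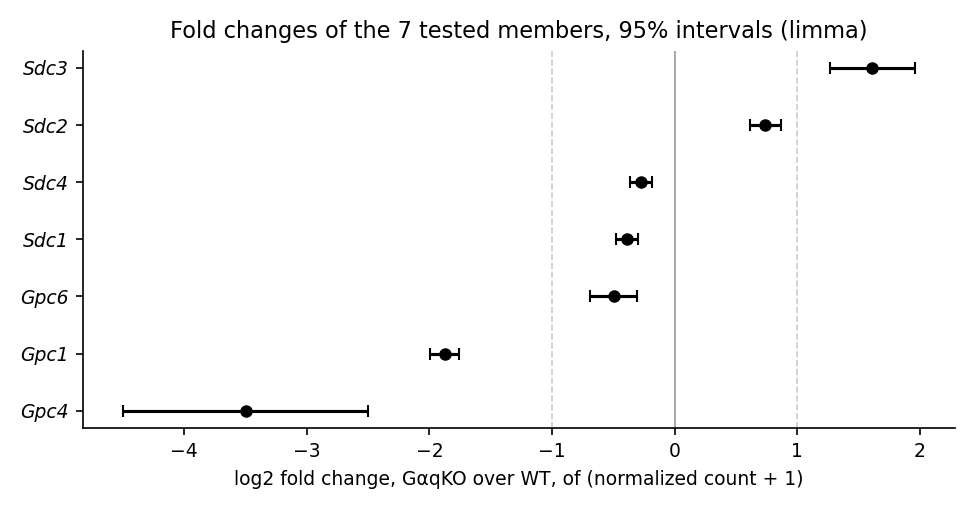
Log2 fold change of GαqKO over WT on the log2(normalized count + 1) scale for the 7 tested genes, with 95% intervals from limma (n = 3 libraries per genotype) and dashed lines at -1 and 1. Sdc3 (1.61) lies past the upper line and Gpc1 (-1.88) and Gpc4 (-3.50) past the lower one, and the interval of Gpc4 is the widest.

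For levels between genes, normalized counts were divided by each gene's exon length in kb. In WT the order from high to low was Sdc4 (2857 ± 73.4 per kb, SD, n = 3), Sdc1 (742 ± 5.19), Gpc1 (222 ± 9.36), Sdc2 (183 ± 14.8), Gpc6 (29.5 ± 0.929), Gpc4 (7.05 ± 1.80), Sdc3 (4.93 ± 0.579) and Gpc3 (0.345 ± 0.348). No neighbours in that order overlapped between libraries, although Gpc4 and Sdc3 did when only exon bases outside other genes' spans were counted. In GαqKO it was Sdc4 (2363 ± 77.9 per kb, SD, n = 3), Sdc1 (567 ± 16.1), Sdc2 (304 ± 2.86), Gpc1 (60.5 ± 3.28), Gpc6 (20.9 ± 0.499), Sdc3 (15.2 ± 0.589), Gpc3 (1.61 ± 1.95) and Gpc4 (0.536 ± 0.469). Only Gpc3 and Gpc4 overlapped there. Sdc4 and Sdc1 kept the first and second place in both genotypes, while Sdc2 and Gpc1 changed places, and Gpc4 went from above Sdc3 to below it.

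The summed syndecan level was 3786 ± 74.6 per kb in WT and 3249 ± 82.3 in GαqKO (SD, n = 3), a ratio of 0.858. The minor members took larger shares of it in GαqKO. The share of Sdc2 in that sum was 4.35% to 5.10% over the WT libraries and 9.16% to 9.74% over the GαqKO libraries. Sdc4 still made up most of it, with 75.5% ± 0.557 in WT and 72.7% ± 0.706 in GαqKO (SD, n = 3), while Sdc1 went from 19.6% ± 0.256 to 17.4% ± 0.472 and Sdc3 from 0.13% ± 0.0172 to 0.469% ± 0.00961. The ratio of Sdc2 to Sdc4 per kb was 0.0639 ± 0.00585 in WT and 0.129 ± 0.00547 in GαqKO, and that of Sdc2 to Sdc1 was 0.246 ± 0.0205 and 0.537 ± 0.0153 (SD, n = 3). The libraries of the genotypes did not overlap in these ratios, which follows from the separate values of Sdc2, Sdc4 and Sdc1 given above.

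The summed glypican level fell further, and Gpc1 made up most of it. It was 259 ± 10.6 per kb in WT and 83.6 ± 3.14 in GαqKO (SD, n = 3), a ratio of 0.322. Gpc1 accounted for 85.8% ± 0.187 of it in WT and 72.4% ± 2.57 in GαqKO, and Gpc6 for 11.4% ± 0.709 and 25.0% ± 0.520 (SD, n = 3). So Gpc6 took a larger share of the glypican sum in GαqKO although its own level was lower there. Gpc4 went from 2.71% ± 0.589 to 0.644% ± 0.558, and the 4.60% share of Gpc3 in GαqKO replicate 2 again came from that library alone. The syndecan sum was 14.1 to 14.9 times the glypican sum over the WT libraries and 36.4 to 41.1 times over the GαqKO libraries. Counting only exon bases outside other genes' spans, the mean ratio went from 6.60 to 18.5, so its size depends on how the length of Gpc1 is taken and its direction does not. No test was made on these sums and shares.

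**Figure D3:**
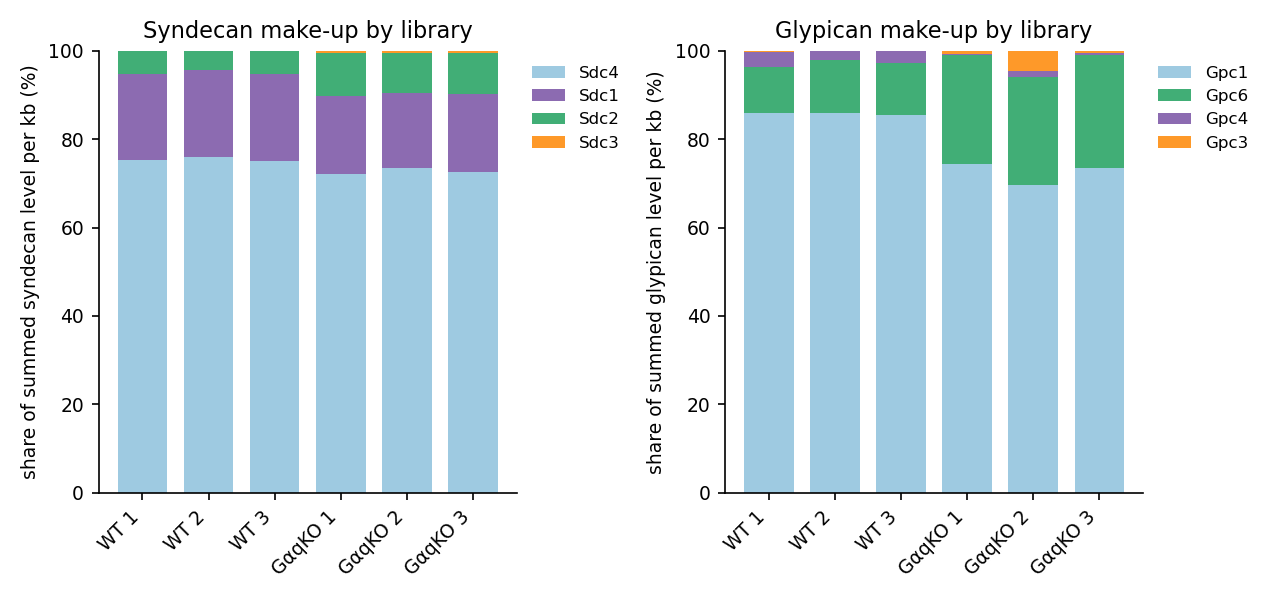
Share (%) of each gene in the summed syndecan level (left) and the summed glypican level (right), both in normalized counts per kb of exon, with 1 stacked bar per library. The Sdc2 band is wider in each GαqKO bar (9.16% to 9.74%) than in each WT bar (4.35% to 5.10%), and the Gpc6 band likewise (24.6% to 25.6% against 10.6% to 11.9%).

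Gpc4 and Gpc3 lie 107 kb apart on chromosome X, and the genotypes differed along that chromosome and on Y. The Y-linked genes Ddx3y, Eif2s3y, Kdm5d and Uty held 876 to 3552 reads each over the 3 WT libraries and were listed at 0 in every GαqKO library. Xist was listed at 0 in all 6, and as all its exon bases lie in the spans of other genes this value says little. Of 484 chromosome X genes tested, 90 were higher and 245 lower in GαqKO, with a median log2 fold change of -0.27, and 79 were lower and 27 higher past the fold limit. Over all genes tested 31.8% were higher and 34.1% lower, with 10.2% and 10.5% past the limit. Within 1 Mb of Gpc3 and Gpc4, 13 genes were tested, Gpc4 itself among them. Of these, 4 were higher and 5 lower, again with Gpc4 included, and the median log2 fold change was 0.02. The others that were lower were Hs6st2, Mospd1, Rtl8a and Rtl8b. The neighbours Phf6 (log2 fold change 0.12, limma adjusted p = 0.0699) and Hprt1 (0.09, limma adjusted p = 0.247), which were picked after their values were seen, did not pass the test, whereas Rtl8a and Rtl8b were at 17.3 to 30.5 normalized counts in WT and 0 in GαqKO. The sex chromosome content of the lines cannot be told apart from the genotype here, and its part in the Gpc4 difference was not tested.

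The other genes that build, sulfate, cut or bind these chains were taken as 8 lists of 77 genes in all, of which 66 were tested. In GαqKO 19 were higher, 30 were lower and 17 did not pass, beside the 31.8% and 34.1% of all genes tested. Past the fold limit lay 9 higher and 10 lower genes, where 10.2% and 10.5% of all genes tested lay past it. The median log2 fold change of the list genes was -0.16.

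Of the 8 other proteoglycans, 7 were tested, with 1 higher, 5 lower and 1 without a call (median log2 fold change -0.63). Tgfbr3, the co-receptor for TGF-beta ligands also called betaglycan, rose from 80.4, 97.1 and 104.8 normalized counts in WT to 1087, 1034 and 971 in GαqKO. That is 10.9-fold higher, at a log2 fold change of 3.45 (SE 0.10, limma adjusted p = 3.67e-12). The lower genes past the fold limit were Nrp1, a co-receptor for VEGF and semaphorins (1224 ± 54.6 to 217 ± 5.54 normalized counts, log2 fold change -2.49, limma adjusted p = 1.14e-12), Agrn, the basement membrane proteoglycan agrin (1691 ± 86.0 to 512 ± 8.64, -1.72, limma adjusted p = 7.77e-12), and Col18a1, the basement membrane collagen XVIII (109 ± 6.13 to 49.4 ± 9.46, -1.14, limma adjusted p = 7.97e-05), all as SD with n = 3. Cd44, a hyaluronan receptor and the most abundant of the list per kb, fell by 0.30 on the log2 scale (limma adjusted p = 5.44e-05), and Hspg2 (perlecan) by 0.63. Gpc5 (11.7 ± 11.01 and 16.4 ± 7.62 normalized counts, SD, n = 3) did not pass, and Srgn was under the limit. The transmembrane co-receptor Tgfbr3 and the GPI-anchored Gpc1 thus moved in opposite directions, each by a large step.

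All but 1 of the tested enzymes that start and extend the chains stayed within the fold limit. Of 12, 11 were tested, with 2 higher, 4 lower and 5 without a call (median log2 fold change -0.10). Ext1, which polymerizes the chain together with Ext2 and was the most abundant of the list per kb, had a log2 fold change of 0.07 (SE 0.04, limma adjusted p = 0.123). Ext2 was lower, at a log2 fold change of -0.515 (limma adjusted p = 8.97e-06). The other lower genes were B3gat3 (-0.65), Extl3 (-0.44) and Xylt2 (-0.26), and Extl2 was higher (0.41). The exception past the fold limit was Xylt1, a xylosyltransferase that starts the linker, at 9.15 ± 2.34 normalized counts in WT and 94.2 ± 17.6 in GαqKO (SD, n = 3, log2 fold change 3.24, limma adjusted p = 1.25e-07). A single WT library of Xylt1 reached 10 normalized counts, and 80.1% of its exon bases lie in other genes' spans.

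The enzymes that modify the chain held large changes in both directions. Of 16, 11 were tested, and 4 were higher and 7 lower (median log2 fold change -0.47). N-deacetylase/N-sulfotransferases open the modification of the chain: Ndst3 rose from 32.4, 25.3 and 19.3 normalized counts in WT to 294.9, 319 and 277 in GαqKO (log2 fold change 3.51, SE 0.18, limma adjusted p = 1.22e-09). Ndst2 rose by a log2 fold change of 1.09 (SE 0.07, limma adjusted p = 9.66e-09). Ndst1, the most abundant of the list per kb, rose by only 0.15 (SE 0.05, limma adjusted p = 0.025), with overlapping groups. Ndst3 was thus a minor member of this enzyme family in WT (2.20 per kb, beside 238 for Ndst1 and 80.7 for Ndst2). It stayed below both in GαqKO (25.5 per kb, beside 264 for Ndst1 and 171 for Ndst2).

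The 3-O-sulfotransferases, which add the rarest sulfate group, went in opposite directions where they were tested. Hs3st3a1 was at 158, 151 and 153 normalized counts in WT and at 1.88, 2.31 and 2.01 in GαqKO (log2 fold change -5.66, SE 0.27, limma adjusted p = 3.7e-10). In the 5 libraries with recovered reads this was 456 reads against 4, a ratio of 74.1 (exact 95% interval 28.7 to 273, counting error only). Hs3st3b1, an enzyme of the same specificity, was at 75.2, 77.7 and 80.4 in WT and at 0, 0 and 1.01 in GαqKO (limma adjusted p = 1.78e-08). Both entered the test only through their WT libraries. Hs3st1, the form that makes the antithrombin-binding site, rose from 14.8 ± 2.28 to 99.7 ± 18.2 normalized counts (SD, n = 3, log2 fold change 2.67, limma adjusted p = 2.1e-07). Hs3st2, Hs3st4, Hs3st5 and Hs3st6 were under the limit and were not tested. Of the 6-O-sulfotransferases, Hs6st3 fell from 150.6 ± 7.07 to 29.3 ± 6.44 (SD, n = 3, log2 fold change -2.35, limma adjusted p = 1.23e-07), and Hs6st1 and Hs6st2 fell by 0.82 and 0.28 on the log2 scale.

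The enzymes that edit finished chains outside the cell gave the largest log2 fold changes of the lists. By the ratio of WT to GαqKO means, Hs3st3b1 changed more (232, beside 113 for Sulf1 and 96.0 for Sulf2). That ratio rests on a GαqKO mean of 0.336 normalized counts. Sulf1 and Sulf2 are the extracellular 6-O-endosulfatases, which take sulfate groups off chains on syndecans and glypicans. Sulf1 was at 435, 392 and 442 normalized counts in WT replicates 1, 2 and 3 and at 5.63, 4.62 and 1.01 in GαqKO (log2 fold change -6.65, SE 0.36, limma adjusted p = 1.58e-09). Sulf2 was at 640.1, 697 and 635 in WT and at 4.70, 5.78 and 10.1 in GαqKO (log2 fold change -6.45, SE 0.23, limma adjusted p = 1.88e-11). Both genes were thus well expressed in each WT library and close to 0 in each GαqKO library, with read ratios of 81.6 (exact 95% interval 44.2 to 170.5, counting error only) and 127 (68.9 to 265) in the 5 libraries. Sulf1 entered the test only through its WT libraries, and of Sulf2 a single GαqKO library reached 10 normalized counts. Hpse, heparanase, which cuts the chain itself, rose from 33.6 ± 8.11 to 95.4 ± 4.66 normalized counts (SD, n = 3, log2 fold change 1.51, limma adjusted p = 2.45e-05). Hpse2 did not pass (limma adjusted p = 0.235).

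Of the 5 genes that supply activated sulfate, 2 were higher, 2 were lower and 1 did not pass (median log2 fold change -0.16). Papss1, which makes the sulfate donor PAPS, rose by a log2 fold change of 0.81 (limma adjusted p = 9.29e-09), and Slc35b2, a Golgi PAPS transporter and the gene of the list with the highest mean per kb over all libraries, by 0.21 (limma adjusted p = 0.0195). Papss2, the second PAPS synthase, was low in both, at 19.0 ± 6.18 and 4.57 ± 2.08 normalized counts (SD, n = 3, log2 fold change -1.86, limma adjusted p = 0.00136), and entered the test only through WT. Of its exon bases, 91.4% lie in other genes' spans.

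Of 11 genes for shedding of the core proteins or release of the anchor, 8 were tested, with 3 higher, 3 lower and 2 without a call (median log2 fold change -0.01). Notum, a secreted hydrolase that was first described as releasing glypicans from their GPI anchor, was at 3.13, 0.971 and 5.09 normalized counts in WT and at 192.5, 188 and 189 in GαqKO (log2 fold change 5.70, SE 0.36, limma adjusted p = 7.68e-09), and entered the test only through GαqKO. Its reads were 9 in WT against 368 in GαqKO over the 5 libraries, a ratio of 62.9 (exact 95% interval 32.8 to 139, counting error only), and 80.9% of its exon bases lie in other genes' spans. Mmp9, a gelatinase that can shed syndecans, rose from 12.1 ± 6.57 to 234.9 ± 17.7 normalized counts (SD, n = 3, log2 fold change 4.32, limma adjusted p = 4.83e-08). Mmp14, the membrane-type protease that was the most abundant of the list per kb, did not pass (log2 fold change 0.06, SE 0.04, limma adjusted p = 0.26). Adam10 and Mmp2, which were abundant in WT, fell by 0.56 and 0.90 on the log2 scale.

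The partners of the syndecan tail changed by small steps. Of 11, 10 were tested, with 2 higher, 5 lower and 3 without a call, none past the fold limit (median log2 fold change -0.21). Sdcbp, or syntenin, the PDZ protein that sorts syndecans into exosomes, fell by 0.35 on the log2 scale (1421 ± 21.4 to 1116 ± 68.8 normalized counts, SD, n = 3, limma adjusted p = 6.36e-05). Its partner Pdcd6ip (ALIX) did not pass (limma adjusted p = 0.124). Prkca, the kinase that Sdc4 binds and activates, fell by 0.70 on the log2 scale (limma adjusted p = 2.01e-07). Arf6, a GTPase of syndecan recycling and the most abundant per kb, had a log2 fold change of 0.17 (limma adjusted p = 0.00382).

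The GPI anchor genes, on which glypicans depend, gave 4 higher, 2 lower and 4 without a call among 10 tested (median log2 fold change 0.14). Pigt, a subunit of the transamidase that attaches the anchor and the most abundant of the list per kb, rose from 1148, 1126 and 1119.6 normalized counts in WT to 3048, 3063 and 2877 in GαqKO (log2 fold change 1.40, SE 0.04, limma adjusted p = 8.24e-12). The transamidase subunits Gpaa1 and Pigk rose by 0.38 and 0.31 on the log2 scale, and Pigs (log2 fold change -0.16, limma adjusted p = 0.0601) and Pigu (0.17, limma adjusted p = 0.0874) did not pass. Pgap1, which removes a fatty acid from the new anchor, fell from 286 ± 16.3 to 102 ± 13.1 (SD, n = 3, log2 fold change -1.48, limma adjusted p = 1.2e-07).

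**Figure D4:**
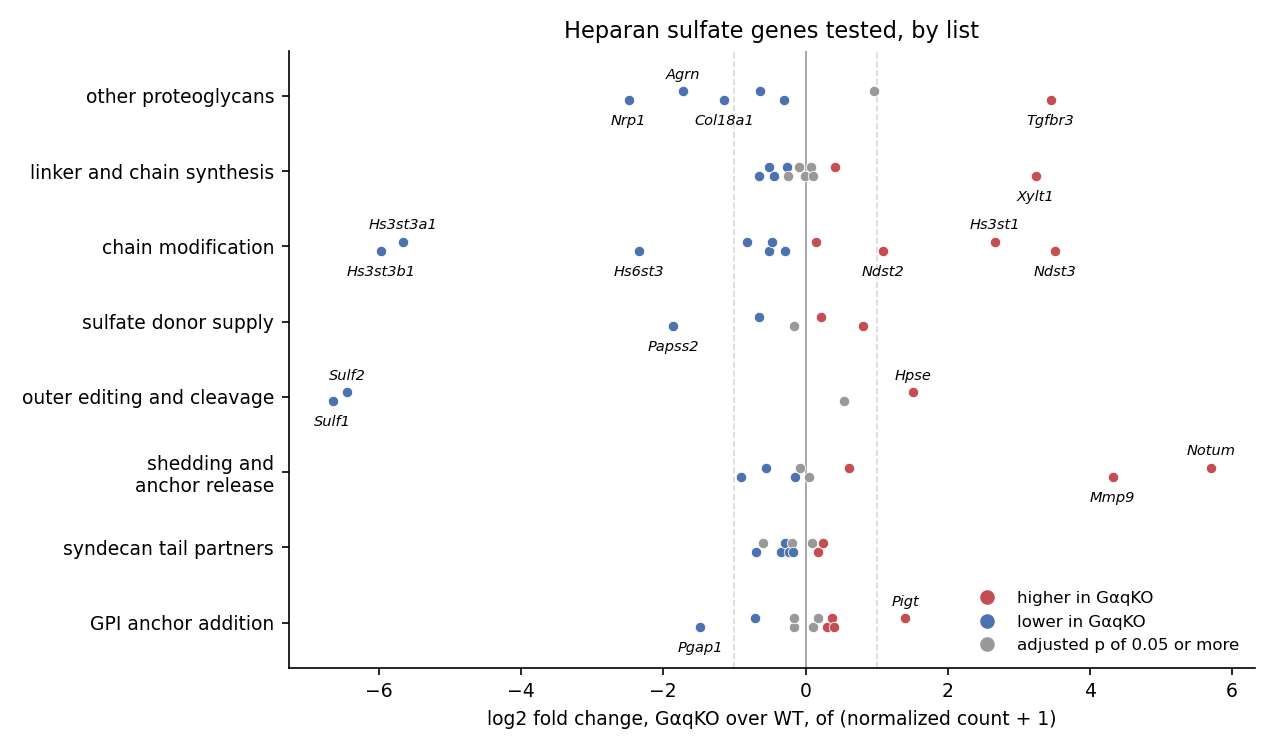
Log2 fold change of GαqKO over WT on the log2(normalized count + 1) scale for the 66 tested genes of the 8 lists, 1 point per gene, red for higher, blue for lower and grey for an adjusted p of 0.05 or more, with dashed lines at -1 and 1. Sulf1, Sulf2, Hs3st3a1 and Hs3st3b1 lie furthest to the left (-6.65 to -5.66) and Notum (5.70) and Mmp9 (4.32) furthest to the right, while the syndecan tail partners all lie between the dashed lines.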

How the data were processed

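RNA sequencing of 3 WT and 3 GαqKO MEF libraries was analysed, grouped by the sample titles. Per the methods of the study, the authors aligned poly-A selected paired-end reads to GRCm39 with Rbowtie2, counted them with featureCounts (GENCODE release M32) and used DESeq2. The featureCounts settings and versions are not given in the sources used here. The deposited values are a signal, normalized counts, and not raw counts. Dividing by the worth of a single read gave whole numbers (tolerance 0.02) for 100.0% of values in 5 libraries, which were taken as reads. Those of GαqKO replicate 3 were not used. The total depth was 9853000 to 12229175 reads, and intervals from reads cover counting error only.

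Symbols, exon lengths and coordinates came from GENCODE release M39 (GRCm39), which matched 56310 of 56953 genes. The 14096 genes that reached 10 normalized counts in 3 or more libraries were fitted with limma 3.58.1 (trend, R 4.3.3) on log2(normalized count + 1), with Benjamini-Hochberg adjustment over all of them. This scale understates the change of low genes. A call is an adjusted p under 0.05, and the fold limit is a log2 fold change over 1 or under -1. The alternatives were TMM scaling, other filters and pseudocounts, limma without a trend, a replicate block, each library left out in turn, and edgeR 4.0.16 and DESeq2 1.42.0 on the reads of 5 libraries. The code was tested on simulated data. Python 3.11.15 was used for the rest.

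The 10 genes and the 8 lists were chosen with earlier results of these data known. The text names the 10 genes, Gnaq and Gna11, in each list the genes past the fold limit and the one with the highest mean per kb, and the X and Y genes Ddx3y, Eif2s3y, Kdm5d, Uty and Xist. Other list genes and neighbours of Gpc4 were named after their values were seen. The p-values measure the spread between the libraries of each line.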

Additional observations from a re-analysis of the deposited data

How the results depend on the processing

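The 7 tested genes kept their direction and their call under each of the 15 alternatives, except that Gpc4 was not tested where 10 normalized counts were required in every library. There the number of the genes lower past the fold limit was 1 in place of 2. Over all genes, 831 of 12054 tested were higher and 765 lower past it, in place of 1432 and 1486 of 14096. The log2 fold changes over the alternatives ran from -0.41 to -0.37 for Sdc1, 0.68 to 0.79 for Sdc2, 1.52 to 1.68 for Sdc3, -0.30 to -0.25 for Sdc4, -1.92 to -1.84 for Gpc1, -3.99 to -2.48 for Gpc4 and -0.52 to -0.47 for Gpc6. With each library left out in turn, 2 of the 7 were higher and 5 lower each time, 1 and 2 of them past the fold limit, and of the list genes 17 to 21 were higher and 28 to 30 lower. Over all genes 4142 to 4452 were then higher and 4475 to 4661 lower, with 1426 to 1545 and 1492 to 1603 past the fold limit.

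The replicate numbers gave no sign of pairing: same-numbered WT and GαqKO libraries deviated from their group means with correlations of -0.05, -0.15 and -0.06. So few libraries cannot settle whether they were paired. With a replicate block all 7 calls stood (Sdc1 -0.39, Sdc2 0.74, Sdc3 1.61, Sdc4 -0.27, Gpc1 -1.88, Gpc4 -3.50 and Gpc6 -0.50 on the log2 scale), and 4324 genes were higher and 4638 lower. Depth limits Gpc4 and Gpc3, with at most 49.1 and 11.6 normalized counts in any library.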
